A study of Mus musculus with 6 samples.

Results

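miR-199a, miR-199b and miR-214 are microRNAs made from 4 hairpins of the mouse genome, and 6 of the 689 miRNAs measured in embryonic mouse cardiomyocytes (EMCMs) are named miR-199 or miR-214. The 6 are miR-199a-5p, miR-199a-3p, miR-199b, miR-199b*, miR-214 and miR-214*, chosen by name alone. The cells came from wild type hearts at E16.5 and grew on collagen-coated flexible membranes. There were 3 static cultures and 3 cultures under cyclic stretch of 16% at 1 Hz, both for 24 hours. The labels name Swiss Webster mice, while the study's methods name CD1 mice and another number of samples per group. The values used here are the authors' mean abundance of each miRNA over static and stretched cultures together, so they describe the level of the miR-199 and miR-214 strands in EMCMs and not their response to stretch. A single mean gives no spread between replicates, and the depth of each library is unknown, so no value below carries an error or a test.

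A microRNA hairpin is cut into a 5p and a 3p strand, and a strand loaded into Argonaute silences mRNAs that pair with its seed, bases 2 to 8. miR-199a-2 and miR-214 are processed from Dnm3os, a long noncoding RNA transcribed from the strand opposite the dynamin gene Dnm3, and mice that lack Dnm3os have growth and skeletal defects. The miR-199 and miR-214 families are known from mesenchymal cells and fibroblasts. In the heart, miR-199a-5p is known to target Hif1a and Sirt1, miR-199a-3p to promote cardiomyocyte proliferation, and miR-214 to target the sodium-calcium exchanger Ncx1.

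The mature strands are shown because their shared and separate bases decide which names can be told apart by sequencing. They were taken from RefSeq (GRCm38.p6), with the seed in capitals, and the 2 miR-199 3p strands are the same molecule.
miR-199a-5p: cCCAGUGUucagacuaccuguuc
miR-199a-3p: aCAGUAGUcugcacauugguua
miR-199b-3p: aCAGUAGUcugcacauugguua
miR-214-3p: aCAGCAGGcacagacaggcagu
miR-214-5p: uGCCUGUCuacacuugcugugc
miR-761: gCAGCAGGgugaaacugacaca

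The seed of miR-199a-5p, CCAGUGU, also stands in the Mir199b hairpin, in the stretch closest to miR-199a-5p, so the 5p strands of miR-199a and miR-199b form 1 seed group. The 3p strands of miR-199a and miR-199b form another, with the seed CAGUAGU, held by 2 of the 1679 mature mouse miRNAs in the RefSeq table. The seed of miR-214-5p was held by 1. The seed of miR-214-3p was also held by 2, the other being miR-761, shown above for that reason and not analysed here. miR-214-3p and miR-199a-3p begin with the same 4 bases, yet are identical at only 8 positions when aligned from their 5′ ends without gaps. The GC content was 59.1% in miR-214-3p, 54.5% in miR-214-5p, 52.2% in miR-199a-5p and 40.9% in miR-199a-3p. The mature strands were all 22 or 23 nt long. How evenly different strands enter a library was not tested, so comparisons between strands below are of reads.

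The hairpins are shown with their mature strands in capitals, on the strand that is transcribed, from RefSeq (GRCm38.p6). In Mir199b the capitals mark miR-199b-3p.
Mir199a-1: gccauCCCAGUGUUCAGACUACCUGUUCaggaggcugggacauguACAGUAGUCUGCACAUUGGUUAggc
Mir199a-2: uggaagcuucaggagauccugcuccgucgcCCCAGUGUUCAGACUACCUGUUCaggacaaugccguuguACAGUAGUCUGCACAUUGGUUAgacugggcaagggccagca
Mir199b: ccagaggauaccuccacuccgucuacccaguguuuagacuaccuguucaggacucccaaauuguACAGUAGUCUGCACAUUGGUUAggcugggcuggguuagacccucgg
Mir214: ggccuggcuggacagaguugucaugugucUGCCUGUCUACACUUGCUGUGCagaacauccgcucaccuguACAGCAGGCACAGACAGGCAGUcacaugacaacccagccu

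The miR-199a strands are encoded by 2 hairpins and miR-199b by a further one, each on the strand opposite a dynamin gene. In GRCm38, Mir199a-2 lies at chr1:162217814-162217923 and Mir214 at chr1:162223368-162223477, both on the plus strand. Both overlap an exon of Dnm3os, which spans chr1:162217623-162225550 on the same strand, and both lie within an intron of Dnm3 on the opposite strand. Mir199a-1 lies at chr9:21496495-21496564 on the minus strand, within an intron of Dnm2 on the opposite strand. Mir199b lies at chr2:32318460-32318569 on the plus strand, within an intron of Dnm1 on the opposite strand. Of the 4 hairpins, only Mir199a-2 and Mir214 therefore belong to Dnm3os. The genome build used by the authors is not given in the sources used here, and these positions come from a match of names to the annotation.

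miR-199a-5p was the most abundant of the 6, and in order of level came miR-199a-3p with miR-199b, miR-214, miR-214* and miR-199b*. The mean abundance is taken here as the log2 of a miRNA's proportion of all miRNA reads, a reading of the authors' column name. It is also given below as a share of the reads of the 689 miRNAs. miR-199a-5p had a mean abundance of −8.63, or 0.254% of the miRNA reads, and ranked 35 of 689. miR-199a-3p and miR-199b followed with the same value of −9.30, or 0.159% each, at rank 49. These 3 were the members of the families among the 100 most abundant miRNAs. miR-214 had a mean abundance of −11.81, a share of 0.0280% and rank 104. Its opposite strand, miR-214*, had a mean abundance of −12.78, a share of 0.0143% and rank 134. miR-199b* was the lowest at −13.22, with a share of 0.0106% and rank 144. With 1 mean per miRNA, whether neighbours in this order differ beyond their spread cannot be told.

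**Figure D1:**
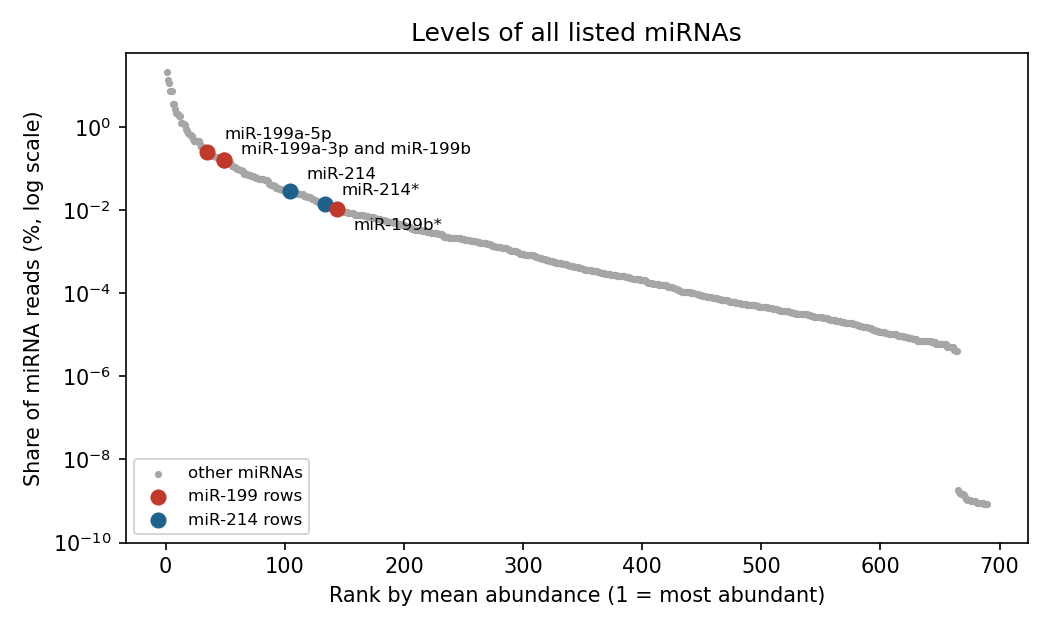
Share of miRNA reads (%, log scale) of each of the 689 miRNAs against its rank by mean abundance, with the miR-199 rows in red, the miR-214 rows in blue and other miRNAs in grey. All 6 lie on the upper part of the curve, from rank 35 for miR-199a-5p to rank 144 for miR-199b*, and the detached points at the lower right are 25 miRNAs far below the rest.

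All 6 were above the median miRNA, which had a mean abundance of −17.86. miR-199a-5p was 600.4 times as abundant as that median, miR-199a-3p 377 times, miR-214 66.3 times, miR-214* 33.9 times and miR-199b* 25 times. Most miRNAs were thus far rarer than even the least abundant strand of the miR-199 family, with 79.1% of the 689 below miR-199b*. At the other end, the 10 most abundant miRNAs held 74.5% of the reads, which leaves small shares even for well-expressed miRNAs such as miR-199a-5p.

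miR-199a-3p and miR-199b had identical values in every digit deposited, as their identical mature sequences allow. Their reads cannot be assigned to Mir199a-1, Mir199a-2 or Mir199b, and whether the deposited value holds all such reads under each name or an equal part of them is not given in the sources used here. The table held 14 sets of identical values with 30 miRNAs in all, of which 4 sets lay above the median miRNA. Added up by name, the 6 miRNAs held 0.625% of the miRNA reads, and 0.466% with the identical pair counted once. Sums below count the pair once, and those that include it would be larger if the value is only a part of its reads.

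**Figure D2:**
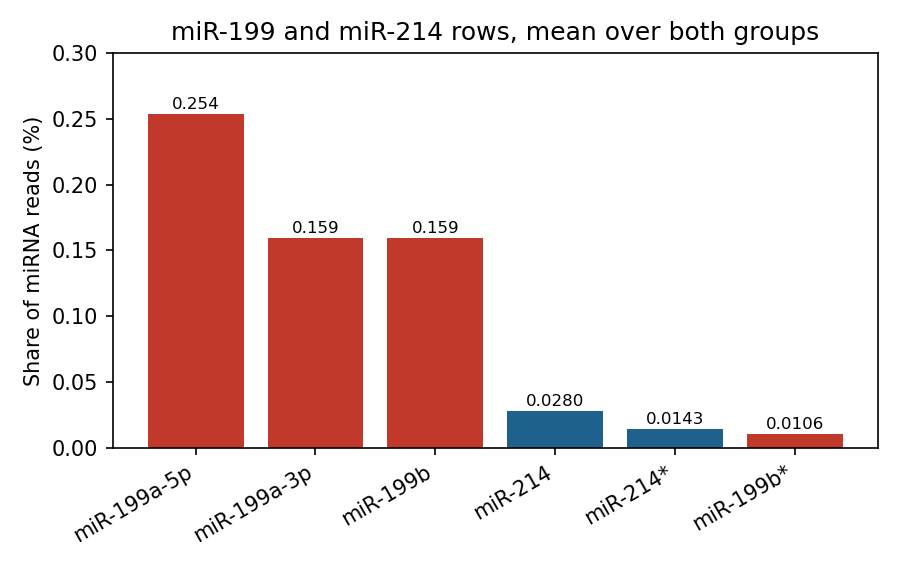
Share of miRNA reads (%) of each miR-199 (red) and miR-214 (blue) row, as bars from 0, from the authors' mean over static and stretched cultures. The bars fall from 0.254% for miR-199a-5p to 0.0106% for miR-199b*, and the bars of miR-199a-3p and miR-199b are the same height because their values are identical; no error bars can be drawn from 1 mean.

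The 5p strands, unlike the 3p strands, differ between miR-199a and miR-199b. The stretch of the Mir199b hairpin closest to miR-199a-5p is identical at 22 of 23 bases, and the single change is C10U, counted from 1 at the 5′ end with the base of miR-199a-5p first. The changed base is in capitals.
miR-199a-5p: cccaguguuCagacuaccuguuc
Mir199b hairpin: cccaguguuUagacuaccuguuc

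The change lies outside the seed, and the longest run of bases that miR-199a-5p shares with the Mir199b hairpin is 13. In the names used by the authors an asterisk marks the opposite, usually rarer, strand, so that miR-199b* is taken here as the 5p strand of miR-199b, miR-214 as the 3p strand and miR-214* as the 5p strand. These arms come from the older naming of miRNAs, as the table gives no sequences. Under that reading, miR-199a-5p and miR-199b* together held 0.264% of the reads, of which miR-199a-5p made up 96.0% and miR-199b* 4.0%. The 5p product of miR-199a was therefore listed far above that of miR-199b, a difference of 4.58 on the log2 scale. How many mismatches the mapping allowed is not given in the sources used here, and the exchange of reads between strands that differ at 1 base was not tested.

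The miR-199 strands outweighed those of miR-214. With the shared 3p strand counted once, miR-199 held 0.423% of the reads and miR-214 with miR-214* held 0.0423%, a difference of 3.32 on the log2 scale, or about 10-fold. Of the reads of both families, 90.9% were thus miR-199 and 9.09% miR-214. Both arms of miR-214 ranked below miR-199a-5p and miR-199a-3p, and above miR-199b*. miR-214 was 2.65-fold above miR-199b*, and miR-214* 1.35-fold above it.

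As listed, the arms of miR-199a and of miR-214 were closer to each other in level than those of most hairpins. miR-199a-5p exceeded miR-199a-3p by 0.67 on the log2 scale, or 1.59-fold, and miR-214 exceeded miR-214* by 0.97, or 1.96-fold. Across the 238 hairpins with both arms listed, the median difference between arms was 4.06, or 16.7-fold, with quartiles of 1.85 and 7.69. Only 22 of the 238 hairpins had more even arms than miR-199a, and 28 had more even arms than miR-214. The miR-199a-3p value is shared with Mir199b, while miR-199a-5p comes from 2 hairpins, so the balance of miR-199a alone is not known. With miR-199b* added to miR-199a-5p, the difference was 0.73, and 24 of the 238 hairpins had more even arms, miR-199a as listed among them. A difference under 1 on the log2 scale was found in 30 hairpins, or 12.6%. Of the reads of the miR-214 hairpin, 66.2% came from miR-214, so neither strand was a trace product.

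Rare arms widen these differences, so the hairpins were also limited to the 85 with both arms above the median miRNA. Their median difference was 2.64, and 9 of the 85 had more even arms than miR-199a, while 14 had more even arms than miR-214. The arms of miR-199b gave another picture, with miR-199b above miR-199b* by 3.91, or 15.1-fold, near the median of all hairpins. That difference sets the 3p value shared by 3 hairpins against a 5p strand from Mir199b alone. When miR-199a-5p and miR-199b* were added and set against the shared 3p value counted once, the direction turned. The 5p strands were then higher by 0.73 on the log2 scale, or 1.66-fold. Should that value be only a part of the 3p reads, the 3p total would be larger, so this direction is not settled. The arm balance of Mir199b alone is likewise not known from these values.

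**Figure D3:**
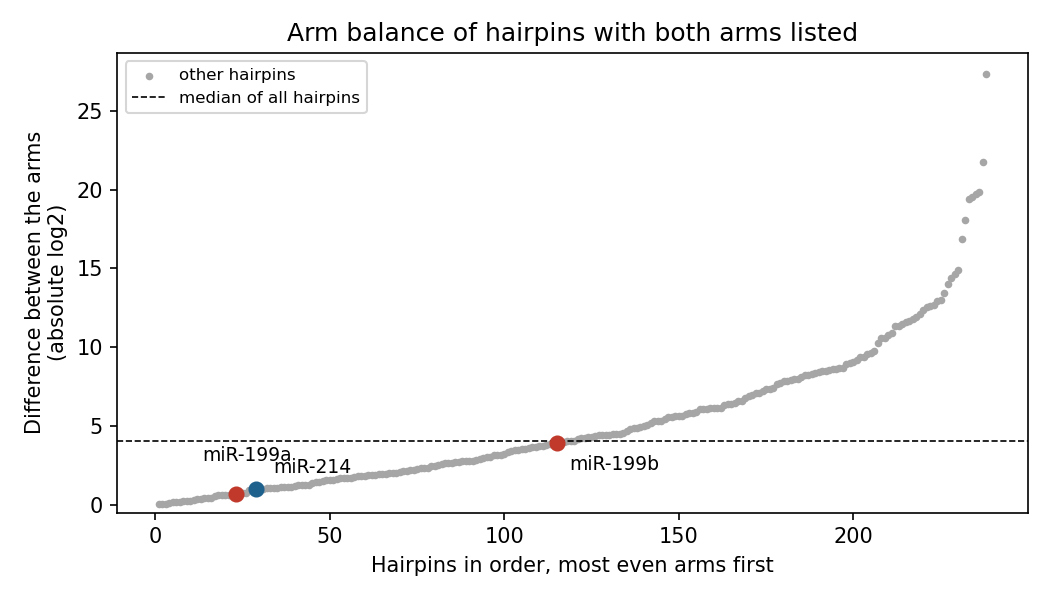
Absolute log2 difference between the 2 arms of each of 238 hairpins, in order from the most even, with miR-199a and miR-199b in red, miR-214 in blue and the median of all hairpins as a dashed line. miR-199a (0.67) and miR-214 (0.97) lie near the even end, and miR-199b (3.91) lies close to the median of 4.06.

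The Mir199a-2 and Mir214 hairpins are neighbours in Dnm3os, with 5444 bases between them, and their more abundant strands differed 9.05-fold. That is a difference of 3.18 on the log2 scale between miR-199a-5p and miR-214. Across the 370 pairs of hairpins with listed miRNAs within 10 kb of each other on 1 strand, the median difference was 3.31, with quartiles of 1.26 and 5.86. In 3 pairs, none on chromosome 12, both hairpins took the same listed value, so their difference was 0 by construction. Of the 370 pairs, 179 (48.4%) were closer in level than Mir199a-2 and Mir214. The match of names gave Mir299a on chromosome 12 the level of miR-298, −7.60, while miR-299* was listed at −14.11. The medians, quartiles and count over all pairs include the pairs of Mir299a. The side of the median on which Mir199a-2 and Mir214 fall is therefore not settled. Most of the pairs, 276 of 370, lie on chromosome 12, and the placing among all pairs rests on them. Among the 94 pairs elsewhere, chosen after the data were seen, the median difference was 1.99, and 60 pairs (63.8%) were closer in level than Mir199a-2 and Mir214. With both arms of each hairpin added, the pair differed by 3.29, against a median of 3.14. miR-199a-5p reads come from Mir199a-1 as well as Mir199a-2, so the difference is an upper value for Mir199a-2 if Mir199a-1 adds any. No other hairpin with a listed miRNA lay within 10 kb of any of the 4 hairpins on the same strand, and hairpins without one were not considered.

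For each strand, the miRNAs given as neighbours in level are the 2 next above and the 2 next below it, which are not always the closest 4. miR-199a-5p stood between miR-25 and miR-322, with miR-25 at 0.254% and miR-322 at 0.235%, then miR-125b-1-3p and miR-34c. miR-199a-3p and miR-199b stood between let-7e at 0.160% and miR-103 at 0.155%, then miR-182 and let-7d. miR-214 stood between miR-92b at 0.0282% and miR-181d at 0.0273%, then miR-30c and miR-128. miR-214* stood between miR-193b at 0.0145% and miR-17 at 0.0141%, then miR-130b and miR-342-3p. miR-199b* stood between miR-433 at 0.0109% and miR-378* at 0.0102%, then miR-146a and miR-184. These are likenesses of level in 1 mean, not of pattern across samples.

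Dnm3os miRNAs are known from fibroblasts, so their levels were set beside miRNAs that mark cell types. The striated muscle miRNAs summed to 1.52% of the reads over 15 rows, 3.25-fold above miR-199 and miR-214 together. Most of that sum was miR-208b, made from an intron of a cardiac myosin gene, at 1.18% and rank 15. Every other row of the list stood at 0.187% or below. miR-133a, a muscle miRNA, had 0.187%, between miR-199a-5p and miR-199a-3p. miR-208a-3p had 0.0750% and miR-499 0.0215%, and miR-1a, among the most abundant miRNAs of the adult heart, had 0.0397% and rank 90. miR-1a was thus 6.39-fold below miR-199a-5p. These 5 muscle miRNAs were present, as the label of the cells says, and each stood above miR-199b*. Of them, miR-208a-3p, miR-499 and miR-1a stood below miR-199a-5p and the shared 3p strand. Others of the list were lower, with miR-133b at 0.00107%, miR-206 at 0.000207% and miR-1b-3p at 7.86e-05%, below every strand of miR-199 and miR-214.

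Marker miRNAs of other cell types ranged from well above to far below miR-199 and miR-214. Those linked to fibroblasts and fibrosis summed to 2.83% over 8 rows, 6.08-fold above miR-199 and miR-214, and miR-21 alone held 2.72%. The sum thus rests on miR-21, which is made by many cell types. The collagen-regulating miR-29a had 0.0753%, below the miR-199a strands. miR-29b had 0.00761% and miR-29c 0.00391%, below every strand of miR-199 and miR-214. Smooth muscle miRNAs summed to 13.5% over 4 rows, nearly all of it miR-143, at 13.4% and rank 2, while miR-145 from the same cluster had 0.0697%. The endothelial miR-126 strands summed to 0.479%, against 0.466% for miR-199 and miR-214. Nearly all of it was miR-126-5p, at 0.466% and rank 24, while miR-126-3p had 0.0130% and rank 139, below both miR-214 arms. Blood cell miRNAs summed to 0.00863% over 8 rows, epithelial miRNAs to 0.00513% over 12, and neural miRNAs, in effect miR-9, to 0.00184% over 2. The liver miRNA miR-122 had 6.03e-05%. Each of the 6 strands of miR-199 and miR-214 was above the sum of the blood cell, epithelial, neural or liver list.

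The total RNA of a culture does not show which cells the miR-199 and miR-214 reads came from, and fewer cells of a type cannot be told apart from less RNA per cell. The part of fibroblasts or other non-muscle cells in these levels was not tested.

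**Figure D4:**
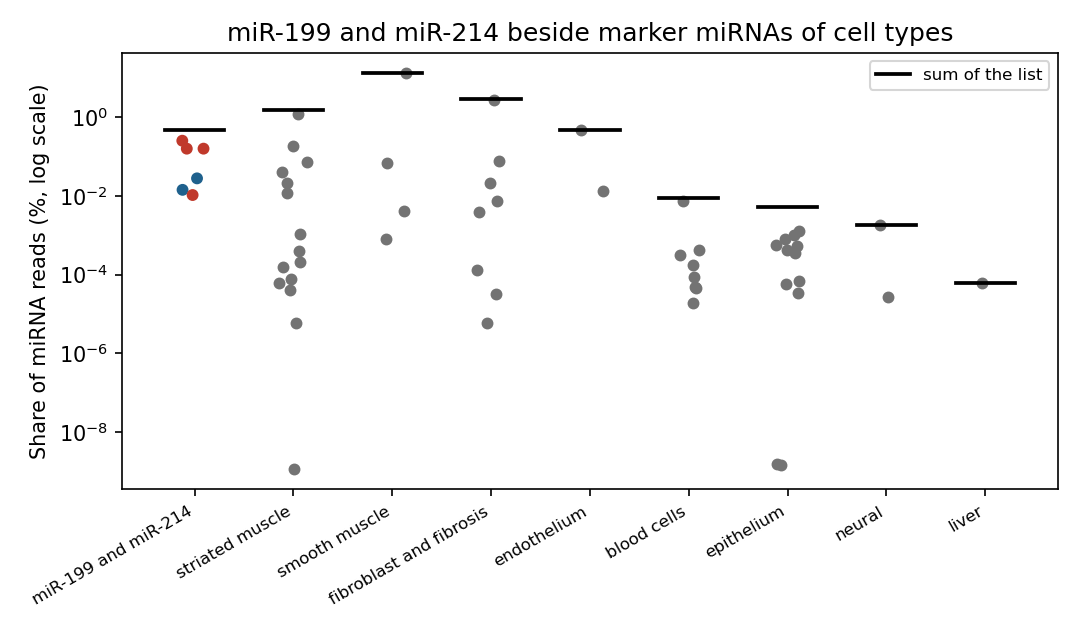
Share of miRNA reads (%, log scale) of each miR-199 (red) and miR-214 (blue) row and of the marker miRNAs of 8 cell types (grey points), with a black line at the sum of each list, the identical pair counted once. The sum of 0.466% for miR-199 and miR-214 lies below those of the striated muscle (mostly miR-208b), smooth muscle (nearly all miR-143) and fibroblast (nearly all miR-21) lists. It lies beside the endothelial list at 0.479%, nearly all miR-126-5p, and above those of blood cells, epithelium, neural cells and liver.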

How the data were processed

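EMCM small RNA libraries (TruSeq Small RNA, HiSeq2500) came from 3 static and 3 stretched cultures per the labels. The authors trimmed and length-filtered the reads, mapped the tags to the mouse genome with Bowtie2, added up hits per miRNA with their own scripts and used edgeR; the submitters' processing notes name DESeq. Build, annotation, versions, normalization and multi-mapping rule are not given in the sources used here.

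Each miRNA has 1 deposited log2 mean abundance over both groups, taken here as a proportion of reads, and these proportions add up to 0.995 over 689 miRNAs. The other 4 columns hold the authors' comparison of stretched with static cultures (log2 and signed fold change, P value, FDR) and were not used, so stretch responses are not reported here. Values per sample were not analysed here, so depth, counting precision and replicate error are unknown and no test was run.

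Shares were 2 to the power of the mean abundance over its sum, and tied miRNAs shared the better rank. Arms were paired by name. Of the 689 names, 595 matched a hairpin in GENCODE M21 or RefSeq (GRCm38), and sequences came from RefSeq. Named miRNAs were the 6 members, miRNAs with a member's seed, the 2 nearest in level on each side, and the leading and defining miRNAs of the marker lists. The members and lists were chosen with earlier results of these data known. An alternative that changed a value by over 10% was taken as moving it, since no replicate SD exists. The steps were tested on simulated data. Python 3.11.15, numpy 2.4.6, pandas 2.3.3 and matplotlib 3.10.9 were used.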

Additional observations from a re-analysis of the deposited data

How the results depend on the processing

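Of 71 alternative values computed for 27 results, 59 moved by at most 10%, 11 moved further and 1 reversed. Without miR-22, the most abundant miRNA, the shares were 0.319% for miR-199a-5p, 0.201% for miR-199a-3p and for miR-199b, 0.0353% for miR-214, 0.0180% for miR-214*, 0.0133% for miR-199b* and 0.787% for all 6, because the total is smaller by construction. With identical miRNAs counted once, the 6 held 0.467%. With both 5p strands set against the shared 3p value counted once, the arm difference of miR-199b turned from 3.91 to −0.73 on the log2 scale (3p minus 5p). That direction is not settled, since the value may be only a part of the 3p reads. The median arm difference was 2.64 for hairpins with both arms above the median miRNA, and the median of neighbouring pairs was 2.19 within 1 kb, where Mir199a-2 and Mir214, 5444 bases apart, give no value. It was 1.99 without chromosome 12, an alternative added after seeing the data. The median within 1 kb includes a pair of Mir299a, which was given the level of miR-298. No paired analysis was possible because each miRNA has 1 mean over both groups, and for the same reason no replicate could be left out. The unknown depth limits the precision of each share.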
